A study of Mus musculus with 16 samples.

Results

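The chemokine receptor genes of mouse CD8+ T cells were followed after a guide RNA against Tardbp. The 9 genes were Ccr2, Ccr4, Ccr7, Ccr8, Cxcr3, Cxcr4, Cxcr5, Cxcr6 and Cx3cr1, which is 9 of the 55536 GENCODE M21 genes in the count table, picked by symbol. All 9 had enough counts to be tested. TDP-43, the product of Tardbp, binds RNA and acts in splicing and in the choice of the 3′ end of transcripts. The cells were OT-I cells, mouse CD8+ T cells with a transgenic T cell receptor for the ovalbumin peptide SIINFEKL, from Rag-deficient C57BL/6J donors that carry CD45.1 and CD45.2. They were electroporated with the Cas9 nuclease complexed either with a control guide RNA (Control gRNA) or with a guide against Tardbp (Tardbp gRNA), and transferred into C57BL/6J mice. All recipients in both groups received SIINFEKL and, with it, agonist antibodies against OX40 and 4-1BB, which are costimulatory receptors of T cells. Spleen and lymph nodes were taken after 4 days by the sample labels (the methods state a somewhat shorter time), and the donor cells were sorted by CD8, CD45.1 and CD45.2. Each group had 8 libraries, from 8 recipient mice, and the methods give ages only for the study as a whole. A deposited letter, M or F, was M for 3 and F for 5 Control gRNA libraries, and M for 5 and F for 3 Tardbp gRNA libraries. The cells were electroporated as a population, so a library can hold edited and unedited cells, and the sort did not select for the edit. The paper reports, by immunoblot of pooled cells from this model, that the Tardbp protein was not made with the Tardbp guide.

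Chemokine receptors are G protein-coupled receptors of the cell surface that steer cells along gradients of small secreted proteins, the chemokines. In T cells, Ccr7 and Cxcr4 are best known for entry into and positioning within lymph nodes and bone marrow, Cxcr5 for entry into B cell follicles, and Cxcr3, Ccr2, Cxcr6 and Cx3cr1 for the movement of activated cells into inflamed tissue. Ccr4 and Ccr8 are known mostly from helper, regulatory and skin-homing T cells. On binding a chemokine, the receptor activates an inhibitory G protein, and RGS proteins, receptor kinases and arrestins end the signal.

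The receptors share a stretch of the second intracellular loop that begins with the DRY motif, at which these receptors couple to the G protein. The coding bases of that stretch are shown for 8 of the receptors to make the family resemblance visible, from the coding transcript with the most counts of each gene. The 9 bases in capitals are the 3 codons of the motif, and the sequences come from the GENCODE M21 transcripts (GRCm38).
Ccr2, chr9:124106132-124106161, plus strand: GATAGGTACttggctattgttcatgctgtg
Ccr4, chr9:114492567-114492596, minus strand: GACAGATACctggccatcgtgcacgcggta
Ccr7, chr11:99145609-99145638, minus strand: GACCGCTACgtagccatcgtccaggccgtg
Cxcr3, chrX:101732587-101732616, minus strand: GACAGATATctgagcatagtgcacgccacc
Cxcr4, chr1:128589491-128589520, minus strand: GACCGGTACctcgctattgtccacgccacc
Cxcr5, chr9:44513888-44513917, minus strand: GACCGGTACctagccatcgtccatgctgtt
Cxcr6, chr9:123810338-123810367, plus strand: GATCGTTTCattgtagtggtccaggctacc
Cx3cr1, chr9:120051927-120051956, minus strand: GACCGGTACcttgccatcgtcctggccgcc
The third codon of the motif was TTC in Cxcr6, and TAC or TAT in the others shown. Over the 30 bases, among the receptors shown, Ccr7 and Cxcr5 were the most alike pair, with 25 identical bases, and Ccr4 and Cxcr6 the least alike, with 14.

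Values are CPM, counts brought to a common library total with the TMM factors of edgeR, and a gene was called where the edgeR quasi-likelihood test gave a Benjamini-Hochberg adjusted p under 0.05 over all 16650 genes tested. The libraries held 56016533 to 94801105 estimated counts in annotated genes. Tardbp itself ranged from 172 to 207 CPM with the control guide and from 110 to 147 with its own guide, so the groups did not overlap, and its log2 fold change was -0.51 ± 0.06 (SE, edgeR adjusted p = 8.07e-07). The RNA concentration before dilution, deposited without a unit, ran from 34.9 to 197.1 for Control gRNA but from 10.1 to 24.0 for Tardbp gRNA, so that it and the guide cannot be told apart. The 6 CD8 T cell markers were all called higher in Tardbp gRNA, with summed levels of 3408 to 4271 CPM against 5211 to 6697. Among markers of other cells, the 4 CD4 T cell markers had none called (4.39 to 20.7 CPM against 6.15 to 15.6 in sum), 1 of 8 B cell markers was called higher (13.6 to 27.8 against 27.1 to 43.4), as were 2 of 8 myeloid markers (25.1 to 45.2 against 31.7 to 91.0), 1 of 5 dendritic cell markers (1.19 to 3.68 against 2.87 to 6.22), 1 of 3 NK cell markers (0.834 to 4.22 against 1.93 to 6.91) and 4 of 6 red cell markers (0.442 to 17.4 against 9.02 to 181.5). Pax5, Siglech, Cd209a and Alas2 were at 0 in at least 8 libraries. The part of these other cells in the receptor values was not tested. In such bulk samples, fewer cells of a type and less RNA per cell cannot be told apart.

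Of the 9 receptors, 4 fell in Tardbp gRNA, 1 rose and 4 did not pass the test. Ccr2, Cxcr4, Cxcr3 and Ccr7 were lower, to 51.9, 68.5, 82.7 and 86.0% of the Control gRNA mean, and Cxcr5 was higher, at 205%. Of all genes tested, 46.7% were called, 23.3% lower and 23.5% higher, so the 5 of 9 called is a share near that of all genes. The median log2 fold change of the 9 was -0.27, against 0.05 over all genes tested. The groups overlapped for all 9 receptors, while 16.9% of all genes had groups without overlap, 6.61% with Tardbp gRNA higher and 10.3% with it lower.

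**Figure D1:**
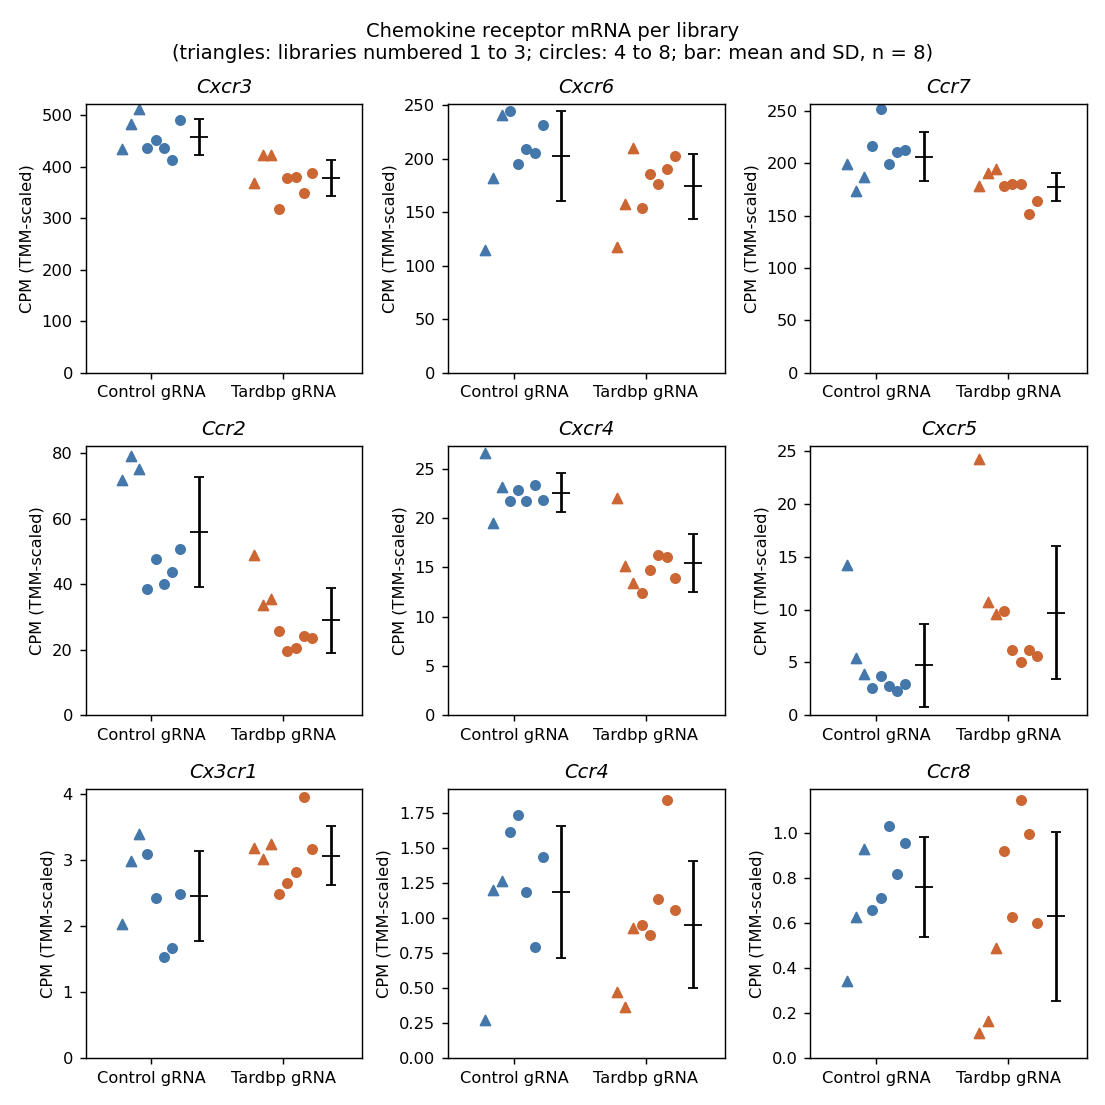
CPM of each of the 9 receptors in every library, in Control gRNA (blue) and Tardbp gRNA (orange), with triangles for libraries numbered 1 to 3, circles for 4 to 8, and the mean and SD of 8 libraries beside the points. Ccr2 and Cxcr4 sat lower in Tardbp gRNA with 1 library, numbered 1, inside the Control gRNA range, and Cxcr5 was far higher in the libraries numbered 1 of both groups.

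Of the receptors for inflamed tissue, Ccr2, the receptor for Ccl2, had the largest fall. Ccr2 was at 38.5 CPM in the lowest, 49.2 in the median and 79.2 in the highest Control gRNA library, and at 19.8, 24.9 and 49.1 in Tardbp gRNA. In Tardbp gRNA 7 of the 8 libraries lay below every Control gRNA library. Its mean was 55.9 ± 16.8 against 29.01 ± 9.96 CPM (SD, n = 8 each), and the log2 fold change was -0.95 ± 0.20 (SE, edgeR adjusted p = 0.000765). The exact permutation test over samples gave p = 0.00124, two-sided and not adjusted over the receptors, where 0.000155 is the smallest it can give. Ccr2 also separated libraries numbered 1 to 3 from those numbered 4 to 8, in both groups. The split was not particular to Ccr2. In a principal component analysis of the libraries, the second component (8.60% of the variance) separated the same sets. It was 9.20 to 49.1 in libraries 1 to 3 and -31.1 to 1.10 in libraries 4 to 8, over both groups. Libraries 1 to 3 had 71.9 to 79.2 CPM with the control guide and 33.8 to 49.1 with the Tardbp guide, and libraries 4 to 8 had 38.5 to 50.8 and 19.8 to 25.7. The share of all genes without overlap within such smaller sets was not counted.

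Cxcr3, the receptor for the interferon-induced chemokines Cxcl9, Cxcl10 and Cxcl11, had the most counts of the 9. It was at 413 CPM in the lowest, 445 in the median and 513 in the highest Control gRNA library, and at 318, 379 and 423 in Tardbp gRNA. In Tardbp gRNA 6 libraries lay below every Control gRNA library and the other two were within its range. The fall was small beside that of Ccr2, the log2 fold change being -0.27 ± 0.06 (SE, edgeR adjusted p = 0.000728) and an exact permutation p of 0.000466. The mean went from 458 ± 34.2 to 378 ± 35.1 CPM (SD, n = 8 each). With 21902 to 41804 counts per library, it was the most precisely counted receptor.

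Cxcr6, the receptor for the membrane-bound chemokine Cxcl16, was at 115 CPM in the lowest, 207 in the median and 245 in the highest Control gRNA library. In Tardbp gRNA it was at 118, 181 and 210. Each Tardbp gRNA library lay within the Control gRNA range, and in both groups the lowest library was the one numbered 1. The log2 fold change was -0.22 ± 0.13 (SE) and was not called (edgeR adjusted p = 0.196, exact permutation p = 0.219). Without the Control gRNA library numbered 1 it was -0.31 and called (edgeR adjusted p = 0.0195), and without both libraries numbered 1, a setting chosen after seeing the data, -0.27 (edgeR adjusted p = 0.0103). Cxcr6 lies inside Fyco1, which is on the opposite strand, and the library kit does not mark strand, so their reads cannot be told apart where they overlap. Fyco1 was at 23.6 ± 4.63 CPM in Control gRNA and 26.2 ± 3.72 in Tardbp gRNA (SD, n = 8 each) and was not called (edgeR adjusted p = 0.324).

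Cx3cr1, the receptor for fractalkine and a marker of highly differentiated effector cells, was at a low level. It was at 1.53 CPM in the lowest, 2.45 in the median and 3.40 in the highest Control gRNA library and at 2.49, 3.08 and 3.95 in Tardbp gRNA. One Tardbp gRNA library lay above the Control gRNA range. The log2 fold change was 0.32 ± 0.16 (SE, edgeR adjusted p = 0.112), with an exact permutation p of 0.0491 without adjustment. It was called with upper-quartile scaling (edgeR adjusted p = 0.0495) and without Control gRNA library 3 (edgeR adjusted p = 0.0477), and its sign turned when RNA concentration or the B cell marker sum was a covariate. The annotation places 9 genes within or across its span. Of these, Wdr48 fell from 84.5 ± 7.38 to 57.6 ± 7.45 CPM (SD, n = 8 each), with groups that did not overlap (edgeR adjusted p = 1.48e-05). Csrnp1, Gorasp1 and Gm33858 were tested and not called, and 1700019L13Rik, Xirp1, Ttc21a, Gm47043 and Gm49427 had too few counts to be tested.

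Of the receptors for lymphoid tissue, Cxcr4, the receptor for Cxcl12, fell the most. It was at 19.5 CPM in the lowest, 22.3 in the median and 26.6 in the highest Control gRNA library and at 12.4, 14.97 and 22.0 in Tardbp gRNA. Of the 8 Tardbp gRNA libraries, 7 lay below all of Control gRNA, and the other, numbered 1, was at 22.0 CPM while its group otherwise stayed between 12.4 and 16.2. The mean went from 22.6 ± 2.01 to 15.5 ± 2.94 CPM (SD, n = 8 each), and the log2 fold change was -0.54 ± 0.10 (SE, edgeR adjusted p = 0.00016, exact permutation p = 0.000777).

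Ccr7, the receptor for Ccl19 and Ccl21 that keeps naive and central memory T cells in lymph nodes, was at 174 CPM in the lowest, 205 in the median and 252 in the highest Control gRNA library. In Tardbp gRNA it was at 152, 179 and 195. In Tardbp gRNA 2 libraries lay below the Control gRNA range. The log2 fold change was -0.22 ± 0.07 (SE, edgeR adjusted p = 0.0107, exact permutation p = 0.00606). The difference stood in libraries 4 to 8, at 199 to 252 against 152 to 180 CPM. In libraries 1 to 3 the levels were 174 to 199 against 178 to 195, with a log2 fold change of -0.02 (edgeR adjusted p = 0.913, a setting chosen after seeing the data), and the difference between the sets was not tested. With upper-quartile scaling, which moved the median log2 fold change of all genes from 0.05 to 0.12 and under which 4865 of the 7951 called genes were higher and 3086 lower in place of 3906 and 3877, the fall of Ccr7 was not called (log2 fold change -0.15, edgeR adjusted p = 0.0799).

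Cxcr5, the follicular receptor for Cxcl13, was the receptor that rose. It was at 2.29 CPM in the lowest, 3.35 in the median and 14.2 in the highest Control gRNA library and at 5.04, 7.90 and 24.3 in Tardbp gRNA. The libraries numbered 1 stood apart in both groups, at 14.2 CPM where the other Control gRNA libraries had 2.29 to 5.38, and at 24.3 where the others of Tardbp gRNA had 5.04 to 10.8. The log2 fold change was 1.04 ± 0.39 (SE, edgeR adjusted p = 0.0366, exact permutation p = 0.0143). Without both libraries numbered 1 it was 1.14 (edgeR adjusted p = 0.000373). Without the Tardbp gRNA library numbered 1 alone it was 0.66 and not called (edgeR adjusted p = 0.133). Without the Control gRNA library numbered 1 alone it was 1.51 (edgeR adjusted p = 0.000683). With the letter M or F as a covariate it was 0.80 and not called (edgeR adjusted p = 0.0677). Of the 16 fits that left out 1 library, 10 did not call it, those without Control gRNA library 3, 4, 5, 6, 7 or 8 and those without Tardbp gRNA library 1, 2, 3 or 4. In libraries 4 to 8 the levels were 2.29 to 3.74 CPM against 5.04 to 9.86, and the share of all genes without overlap in this set was not counted.

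B cells carry Cxcr5 at high level, and the B cell marker sum was higher in Tardbp gRNA, as given above. Cd22 made the largest part of it, at 11.3 ± 5.21 CPM in Control gRNA and 21.2 ± 2.40 in Tardbp gRNA (SD, n = 8 each, edgeR adjusted p = 0.00408). The defining B cell gene Ms4a1 rested at a median of 0.318 CPM with the control guide and 0.548 with the Tardbp guide, and Pax5 was at 0 in all but 1 library. With the log2 marker sum as a covariate Cxcr5 was not called (log2 fold change 0.76, edgeR adjusted p = 0.419). Within the groups, log2 Cxcr5 and the log2 marker sum had Pearson r = 0.43 (Control gRNA) and r = -0.56 (Tardbp gRNA), and Cxcr5 with Ms4a1, on the CPM scale, had r = -0.39 and -0.40, over 8 libraries each. Bcl9l, which overlaps Cxcr5 on the opposite strand, was at 10.1 ± 2.15 and 13.4 ± 3.96 CPM (SD, n = 8 each) and was not called (edgeR adjusted p = 0.0749).

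Ccr4 and Ccr8 had the fewest counts of the 9. Ccr4 was at 0.270 CPM in the lowest, 1.23 in the median and 1.74 in the highest Control gRNA library and at 0.361, 0.938 and 1.85 in Tardbp gRNA. Ccr8 was at 0.341, 0.766 and 1.03 CPM against 0.109, 0.614 and 1.15. For both the ranges overlapped almost entirely, with 19 to 159 counts per library for Ccr4 and 9 to 102 for Ccr8. Their log2 fold changes were -0.32 ± 0.33 and -0.27 ± 0.38 (SE, edgeR adjusted p = 0.459 and 0.596), and neither was called.

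Levels of different receptors were compared after scaling each transcript's counts by its length, with the same scaled total in every library. In Control gRNA the order of the means was Cxcr3 at 435 ± 36.2, Cxcr6 at 176 ± 37.8, Ccr7 at 172 ± 19.3, Ccr2 at 22.7 ± 7.33, Cxcr4 at 21.8 ± 1.96, Cxcr5 at 3.12 ± 2.42, Ccr8 at 1.07 ± 0.322, Cx3cr1 at 1.03 ± 0.309 and Ccr4 at 0.701 ± 0.278 (length-scaled level, SD, n = 8). Cxcr3 thus made 52.2% of the summed level of the 9 receptors, with Cxcr6 at 13.4 to 25.1% and Ccr7 at 17.0 to 24.5% of it over the libraries. In Tardbp gRNA Cxcr3 made 51.8%, Cxcr6 15.4 to 25.1% and Ccr7 19.2 to 24.2%, while the sum itself was 834 ± 63.3 in Control gRNA and 666 ± 55.8 in Tardbp gRNA. The order in Tardbp gRNA differed in 2 places, with Cxcr4 (14.2 ± 2.85) ahead of Ccr2 (11.4 ± 4.92) and Cx3cr1 (1.28 ± 0.204) ahead of Ccr8 (0.841 ± 0.498). With the length of the longest transcript of each gene in place of each transcript's own, Cxcr4 (24.7 ± 1.75) was ahead of Ccr2 (19.2 ± 5.78) in Control gRNA as well.

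Neighbours in the order were compared within libraries by an exact paired permutation test, two-sided, with p adjusted over the 16 pairs of both groups, and 0.00781 was the smallest p it can give. Cxcr3 lay above Cxcr6, the third receptor above the fourth, and Cxcr5 below the fifth and above the seventh receptor, in 8 of 8 libraries of each group (adjusted p = 0.0156 for each of these 8 pairs). Cxcr6 and Ccr7 were not separated in Control gRNA (adjusted p = 0.977) or in Tardbp gRNA (adjusted p = 0.977). Ccr2 and Cxcr4 were not separated in Control gRNA (mean log2 difference 0.0017 ± 0.47, SD, adjusted p = 0.977), and in Tardbp gRNA the difference did not pass (Cxcr4 above Ccr2 by 0.38 ± 0.38, adjusted p = 0.0556). None of the neighbours among Ccr8, Cx3cr1 and Ccr4 passed the test in either group, with adjusted p from 0.0625 to 0.977.

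**Figure D2:**
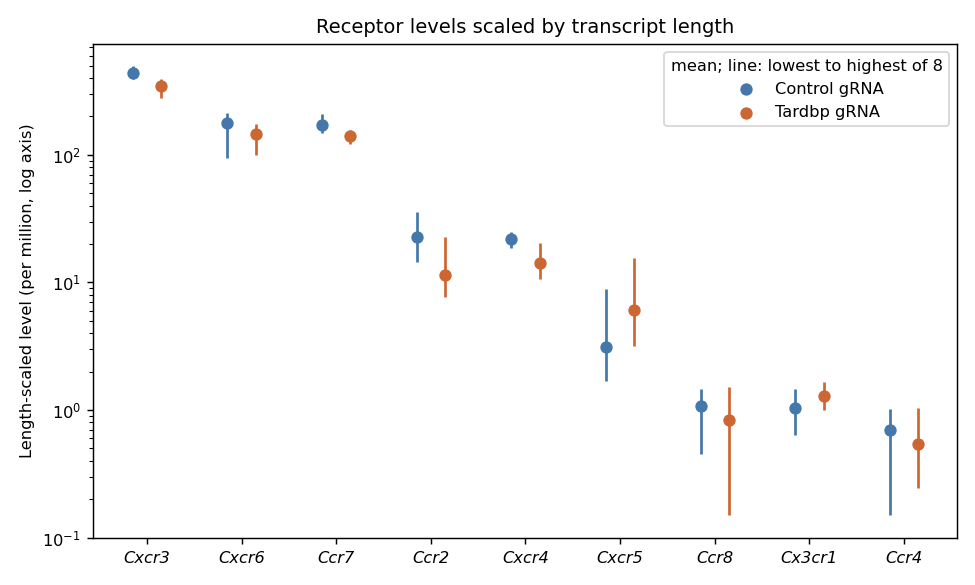
Length-scaled level of the 9 receptors on a log axis, with the mean as a point and a line from the lowest to the highest of 8 libraries, in Control gRNA (blue) and Tardbp gRNA (orange). Cxcr3, Cxcr6 and Ccr7 lie above 94 in every library and Ccr8, Cx3cr1 and Ccr4 below 2.

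Within the groups, receptors moved together or apart from library to library. After removing each group's mean, log2 Cxcr5 and Ccr2 had Pearson r = 0.81 over the 16 libraries (0.71 within Control gRNA and 0.93 within Tardbp gRNA), and Cxcr5 and Cxcr6 had r = -0.86 (-0.90 and -0.81). Ccr4 went with Cxcr6 (r = 0.77) and with Ccr8 (r = 0.75), and both Ccr4 and Ccr8 went against Cxcr5 (r = -0.74 and -0.75). These are descriptions of 36 pairs. Libraries share their depth scaling, and those numbered 1, and more widely 1 to 3, stand at the high end for Cxcr5 and Ccr2.

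**Figure D3:**
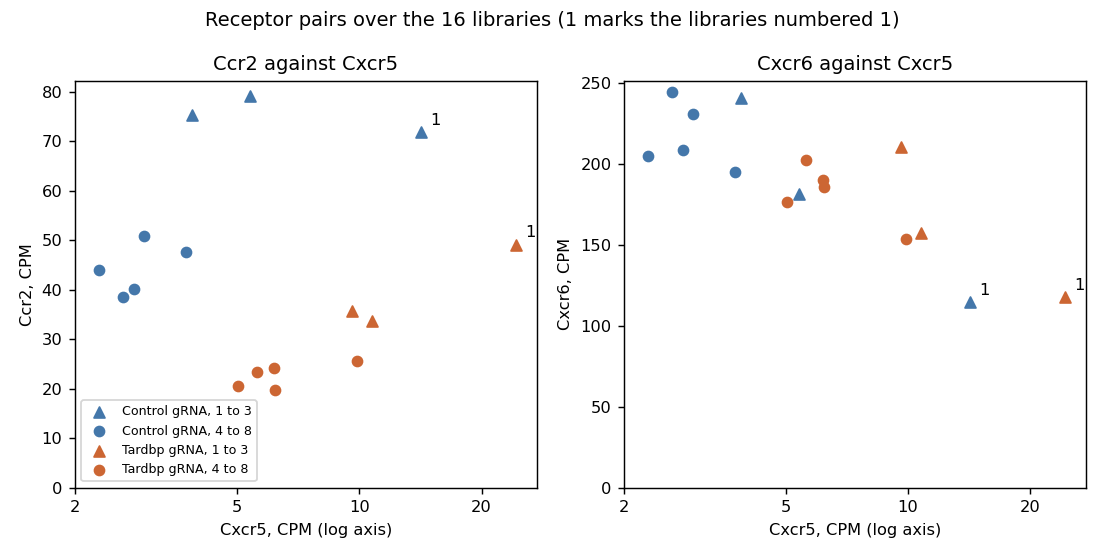
Ccr2 (left, CPM) and Cxcr6 (right, CPM) against Cxcr5 (CPM, log axis) in the 16 libraries, with triangles for libraries numbered 1 to 3 and circles for 4 to 8. The libraries numbered 1 have the highest Cxcr5 of their group, 14.2 and 24.3 CPM, and the lowest Cxcr6, 115 and 118 CPM.

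The genes most like each receptor, by the same Pearson r over the 16 libraries after removing each group's mean, were sought among tested genes whose mean log2 CPM was 1 or more. For Ccr2 they were Gpr160 (r = 0.90), H2-Q10 (0.89) and Lrrk1 (0.87), and for Cxcr3 they were Sytl3 (0.87), Nradd (0.85) and Brd9 (0.84). For Cxcr6 they were Xcr1, itself a chemokine receptor (0.94), H2-K2 (0.92) and Popdc2 (0.91), and for Cx3cr1 they were Rab11b (0.90), Anxa2 (0.90) and Smim24 (0.88). For Cxcr5 they were Dstn (0.93), Ctla2a (0.90) and Gzmk, which encodes the granule protease granzyme K (0.90). For Cxcr4 they were BC055324 (0.87), Hspa13 (0.86) and Supt16 (0.85). For Ccr7 they were Bckdha (0.83), Zc3h3 (0.79) and Mapk7 (0.77). For Ccr4 they were Cd200r1 (0.91), Gramd1a (0.89) and B4galt7 (0.88), and for Ccr8 they were Tbc1d17 (0.83), Zeb2 (0.82) and Xlr4a (0.82). Each is among the highest r of a search over many genes, and the r that such a search gives by chance was not computed. Only the group means were removed, so differences between library numbers remain in these r.

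At the level of transcripts, 4 of the 16 receptor transcripts tested were called, all lower, where 16.6% of all transcripts tested were called and 8.14% were called lower. They were Ccr2-203 (39.3 ± 12.3 against 19.2 ± 5.82 CPM, edgeR adjusted p = 0.00346), Cxcr4-201 (21.7 ± 2.03 against 14.6 ± 3.005, edgeR adjusted p = 0.00239), Cxcr3-201 (466 ± 28.2 against 374 ± 29.6, edgeR adjusted p = 0.000423) and Ccr7-201 (210.2 ± 24.2 against 175.3 ± 12.5, edgeR adjusted p = 0.0151), each as mean and SD of 8 libraries. Each is the transcript with the most counts of its gene. Cxcr3 and Ccr7 have 1 annotated transcript each, so their transcript calls rest on the same counts as their gene calls. Ccr2-203 made 0.690 ± 0.086 of the Ccr2 counts with the control guide and 0.680 ± 0.098 with the Tardbp guide (SD, n = 8 each), and the 4 annotated Ccr2 transcripts hold the same 1119 coding bases.

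Of 12 receptor transcripts, in 5 genes, whose share of the gene was tested with limma, 0 passed an adjusted p under 0.05 with a difference over 0.1, where 0.634% of all transcripts did. The count at an unadjusted p under 0.05 was also 0. The largest difference was in Cx3cr1, where Cx3cr1-201 made a share of 0.649 ± 0.421 with the control guide and 0.952 ± 0.040 with the Tardbp guide (SD, n = 8 each, limma adjusted p = 0.313). In Control gRNA that share ran from 0 to 1 between libraries, with Cx3cr1-203, which has a further exon, as the other transcript in the denominator (Cx3cr1-202, counted in 2 Control gRNA libraries, was left out of it), and in Tardbp gRNA it ran from 0.909 to 1. Cxcr5-201 and Cxcr5-204, which have the same coding sequence, likewise each took from 0 to 1 of Cxcr5 in single libraries of both groups.

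The splicing table gives 1 Psi per group of 8 libraries. Psi is the fraction of a gene's transcripts that include a node, which is a piece of exon or a transcript end, and there is no spread between libraries. It holds 10 nodes of 3 receptors, Ccr2, Ccr7 and Cx3cr1. Both nodes that differed by over 0.1 were 3′ ends of Ccr2, beyond its stop codon, against 4.7% of all nodes. Their Psi values mirror each other, so they describe 1 choice between ends and are not separate differences. Psi of the end at chr9:124106808-124108550 (mm10) was 0.592 in Control gRNA and 0.447 in Tardbp gRNA, and that of the next, more distal end at chr9:124108551-124109140 was 0.408 and 0.553. The other 8 nodes differed by at most 3.64 percentage points, so the same nodes stood out at a difference over 0.05, against 9.65% of all nodes. The transcript shares did not show this shift. Ccr2-201, which stops where the first of these ends stops, had a share of 0.085 ± 0.064 against 0.087 ± 0.033 (Control gRNA first, SD, limma adjusted p = 0.988). Ccr2-202, which stops with the distal end, had 0.012 ± 0.005 against 0.024 ± 0.023 (limma adjusted p = 0.523). Ccr2-203, with most of the counts, runs past both ends.

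TDP-43 binds UG-rich RNA, and the last 1000 bases of each receptor's transcript with the most counts were searched for TGTGTG on the transcript's own strand. The motif was present in 3 of the 9 receptors and in 46.5% of the 13430 tested genes with a transcript of at least that length. Anywhere in these transcripts the motif was present in 7 of the 9, Cxcr5, Cxcr6 and Cx3cr1 among them. All 5 matches in the last 1000 bases are shown, with the motif in capitals and GRCm38 positions.
Ccr2-203, chr9:124108630-124108659, plus strand: acatagatgtcaTGTGTGcatgcaagtggt
Cxcr3-201, chrX:101731658-101731687, minus strand: ctcagccatcccTGTGTGagaagagggaga
Cxcr4-201, chr1:128588569-128588598, minus strand: tagctgtttatcTGTGTGtaggactgtaga
Cxcr4-201, chr1:128588520-128588549, minus strand: aacattccagaaTGTGTGgtaaattgaata
Cxcr4-201, chr1:128588398-128588427, minus strand: gtttggttatgcTGTGTGatggtttgtttg
All 5 lie in the 3′ UTR, and that of Ccr2 lies in the distal end whose Psi was higher in Tardbp gRNA. A match is a description of the letters and not a binding site.

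The rest of the receptor family was read from a list of 14 other chemokine receptors, of which 8 were tested, 2 were called higher and 1 lower (median log2 fold change -0.08). The share called was 37.5%, against 46.7% of all genes tested. Ccr6, the receptor for Ccl20, was at 7.49 CPM in the lowest, 25.1 in the median and 32.9 in the highest Control gRNA library and at 4.26, 9.48 and 12.6 in Tardbp gRNA. Its log2 fold change was -1.31 ± 0.25 (SE, edgeR adjusted p = 0.000323), which is larger in size than that of Ccr2, although the ranges overlapped. Ccr3, best known from eosinophils, and Ccr10, a skin and mucosal homing receptor, were called higher at low levels (0.281 to 0.552 against 0.291 to 1.15 CPM for Ccr3, 0.211 to 1.45 against 0.559 to 1.86 for Ccr10), with log2 fold changes of 1.04 ± 0.26 and 1.02 ± 0.36 (SE, edgeR adjusted p = 0.00279 and 0.0248).

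**Figure D4:**
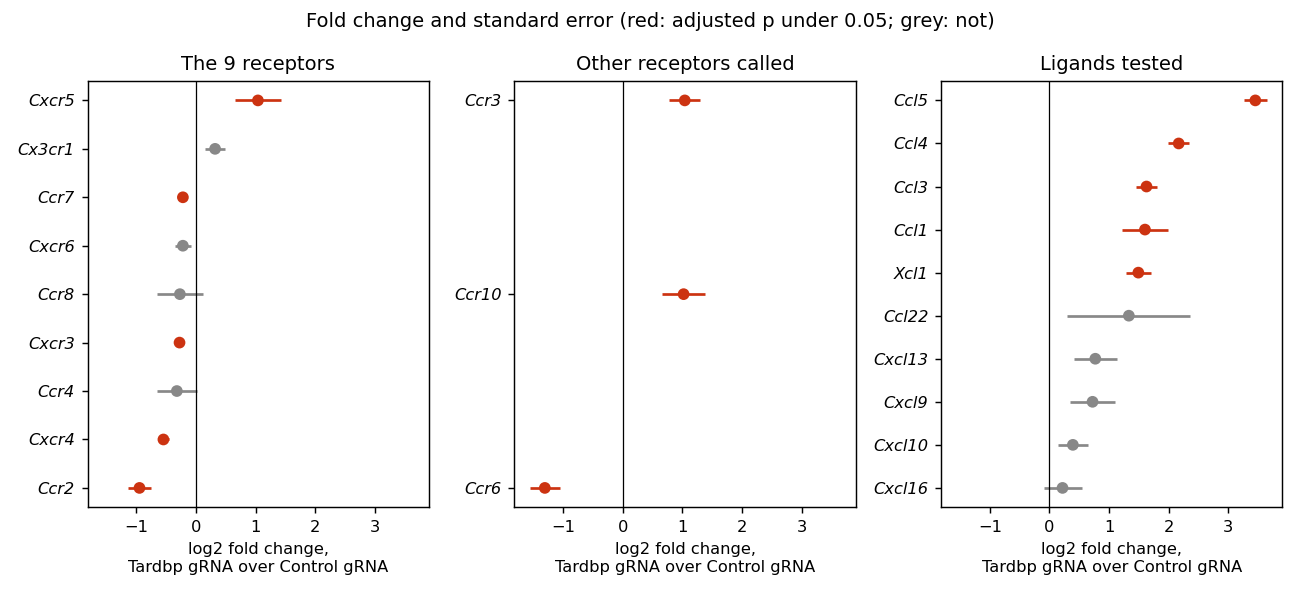
Log2 fold change of Tardbp gRNA over Control gRNA with its standard error, for the 9 receptors (left), the 3 other chemokine receptors that were called (middle) and the 10 ligands tested (right), in red where the edgeR adjusted p was under 0.05. The 5 red ligands lie at 1.49 to 3.45, the 4 red receptors on the left of the first panel at -0.95 to -0.22, and Cxcr5 at 1.04.

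Of 20 ligands listed, 10 were tested, 5 were called higher and 0 lower, and the median log2 fold change was 1.41. The share called was 50%, near the 46.7% of all genes tested, while 23.5% of all genes were called higher. Ccl5, an inflammatory chemokine of activated T cells, ranged from 3.54 to 10.3 CPM with the control guide and from 55.2 to 100.9 with the Tardbp guide. Its log2 fold change reached 3.45 ± 0.19 (SE, edgeR adjusted p = 2.19e-09). Ccl4, Ccl3 and Xcl1, the ligand of Xcr1, had log2 fold changes of 2.17 ± 0.18, 1.63 ± 0.17 and 1.49 ± 0.21 (SE), and for these and Ccl5 the groups did not overlap. Such groups, with Tardbp gRNA higher, were found for 6.61% of all genes tested. Ccl1, the ligand of Ccr8, rose from 3.80 ± 1.80 to 11.5 ± 6.86 CPM (SD, n = 8 each, edgeR adjusted p = 0.00226) with overlapping groups. Of the ligands of the other receptors, Cxcl9, Cxcl10, Cxcl13, Cxcl16 and Ccl22 were tested and not called, and with libraries 1 to 3 against 4 to 8 as a block 7 ligands were called, Cxcl9 and Cxcl10 among them, and 4 of the other receptors, Ccrl2 among them. Ccl2, Ccl19, Ccl21a, Cxcl11, Cxcl12 and Cx3cl1 had too few counts in these T cells to be tested.

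Among 32 genes that carry or end the receptor signal, 30 were tested, 9 were called higher and 8 lower, which is a share of 56.7%, with a median log2 fold change of 0.08. This share is near the 46.7% of all genes. Of the RGS proteins, which speed the shut-off of the G protein and were singled out after their values were seen, 6 were called higher, Rgs19 was not called and Rgs18 was not tested. Rgs10 rose from 8.86 ± 2.59 to 32.8 ± 8.34 CPM (log2 fold change 1.89 ± 0.18, edgeR adjusted p = 1.91e-07) with groups that did not overlap, Rgs16 from 9.62 ± 2.33 to 20.3 ± 6.70 (1.08 ± 0.19, edgeR adjusted p = 0.000114) and Rgs2 from 4.61 ± 1.11 to 6.23 ± 1.51 (0.44 ± 0.16, edgeR adjusted p = 0.0309), as mean and SD of 8 libraries and log2 fold change and SE. Rgs2 was not called in 10 of the 16 fits that left out 1 library. Rgs1, Rgs3 and Rgs14 were also called higher. Of the effectors, Pik3r6, a regulatory subunit of phosphoinositide 3-kinase gamma, fell from 3.44 ± 1.33 to 1.87 ± 0.581 CPM (log2 fold change -0.88 ± 0.24, edgeR adjusted p = 0.00505). Plcb3, a phospholipase C, and Prex1, an activator of Rac, had log2 fold changes of -0.50 ± 0.14 and -0.41 ± 0.10 (SE, edgeR adjusted p = 0.00788 and 0.00288). The kinase subunits Pik3cg and Pik3r5, the phospholipase Plcb2, the Rac regulator Elmo1 and the G protein subunit Gnai3 were called lower as well (Pik3r5 not in 7 of the 16 fits that left out 1 library, nor with upper-quartile scaling or without the filter), while Gng2, the receptor kinase Grk2 and Rac2 were called higher.

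The calls of the receptors were compared over 29 other settings of the test. Ccr2 was called lower in 28 of them, Cxcr3 in 28, Cxcr4 in 27 and Ccr7 in 25. Cxcr5 was called in 14 of 29 and kept a positive sign in all 29. Cxcr6 was called in 4, Cx3cr1 in 2, and Ccr4 and Ccr8 in 0.

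**Figure D5:**
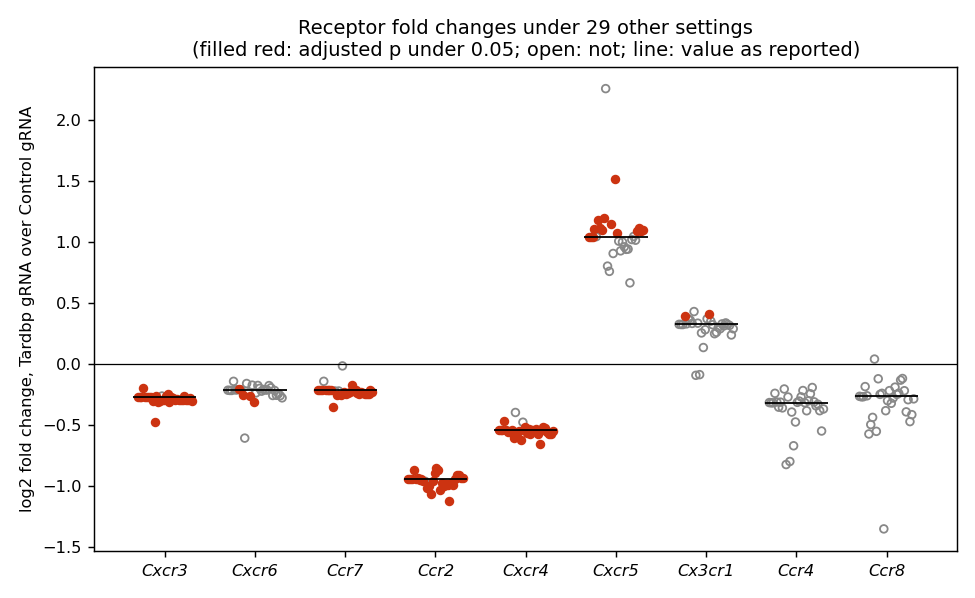
Log2 fold change of each receptor as reported (black line) and under 29 other settings (points), filled red where the adjusted p was under 0.05 and open where it was not. Ccr2 stays between -1.13 and -0.86, while Cxcr5 runs from 0.66 to 2.25 and is called in 14 of 29.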

How the data were processed

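RNA of the sorted cells was made into libraries with SMART-Seq v4, which does not mark strand, and Nextera XT, and read as pairs of 100 bases. By the submitters' processing notes and the methods, HISAT2 2.1.0 (genome mm10) and StringTie 2.1.0 were used, from which the authors obtained gene and transcript estimated counts. The deposited estimated counts are whole numbers without normalization. They amount to 1.89 to 2.02 per read pair, and counts are therefore not independent molecules. Read pairs per library (29714709 to 48164083) are counts deposited from the sequencing facility. Psi was deposited as a fraction per group, made by the authors with Whippet, and its columns were assigned to groups from the study's text. The table also holds the authors' Psi difference and its probability, and these columns were not used. The planned threshold on probability over 0.9 was therefore not applied, and nodes were counted by the difference of the deposited Psi fractions alone. Each of the count tables has 10 columns tied to none of the samples, left unused, as were lines that name no gene (0.0836 to 0.132% of counts).

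Groups came from sample titles. Genes and transcripts were fitted with edgeR 4.0.16 under R 4.3.3 (TMM, filterByExpr with minimum count 10, minimum total 15 and proportion 0.7, quasi-likelihood test, 16 libraries, no covariate), and transcript shares with limma 3.58.1. Permutation tests enumerated all splits or sign flips, and SciPy 1.17.1 adjusted the p of the neighbour comparisons. Libraries came from separate recipients, and no 2 held identical values. The precision of low genes is limited by counts as few as 9 per library. Simulated data at gene level held 100 changes of 1 and 100 of 0.5 on the log2 scale among 16650 genes. There edgeR recovered 73% and 41% of them. At transcript level, with 100 changes of 1 among 40897 transcripts, it recovered 11%. In the data 7783 genes were called, so these shares do not measure the sensitivity of the fits reported.

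The receptors, lists and settings were chosen with earlier results of these data known. Named were Tardbp, the 9 receptors, called genes of the other receptor and ligand lists, the 3 highest and 3 lowest called signalling genes, the 3 genes most like each receptor, and overlapping genes. The B cell markers and the further signalling genes were named after their values were seen. Alternatives were DESeq2 1.42.0, limma voom, other scaling, no filter, blocks, covariates and left-out libraries.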

Additional observations from a re-analysis of the deposited data

Results flagged for a closer look

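In 52 groups of 8 libraries (26 measures in each guide group), 6 held a library whose gap to the next passed Dixon's critical value, where chance gives about 1 in 20, or 2.6. Of the 6, 4 were libraries numbered 1. Cxcr5 was at 14.2 CPM in Control gRNA library 1, with the others at 2.29 to 5.38, and at 24.3 in Tardbp gRNA library 1, with the others at 5.04 to 10.8. Cxcr4 was at 22.0 CPM in Tardbp gRNA library 1, with the others at 12.4 to 16.2. Ccr10 was at 1.45 CPM in Control gRNA library 1, with the others at 0.211 to 0.784. Tardbp itself was at 110 CPM in Tardbp gRNA library 3, with the others at 130 to 147. Rgs16 was at 34.9 CPM in Tardbp gRNA library 4, with the others at 12.4 to 22.0.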

How the results depend on the processing

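Counts of called genes moved past 1.5 times under 4 settings. With RNA concentration as a covariate, which does not overlap between the groups, 1 of the 9 receptors was called (Cxcr3), 1 of the other receptors (Ccr6) and 7 of the signalling genes, while the log2 fold change of Ccr2 was -0.97. With the B cell marker sum as a covariate these were 3 (Ccr2, Cxcr3 and Cxcr4), 1 and 6. In libraries numbered 1 to 3 only, added after seeing the data and with 3 libraries a group, they were 1 (Ccr2), 0 and 1 by edgeR, and 3, 0 and 8 at an unadjusted p under 0.05. Over all genes, 2697, 3463 and 1696 were called under these 3 settings, against 7783. At an adjusted p under 0.01 they were 3 and 11 for the receptors and the signalling genes. Leaving out 1 library at a time gave 4 to 6 of the receptors, 2 to 3 of the other receptors, 5 to 6 ligands, 14 to 17 signalling genes, 4 to 6 receptor transcripts and 0 transcript shares, and Ccr10 was not called without Tardbp gRNA library 1 (edgeR adjusted p = 0.0637) or 4 (0.0506). The sign turned for Ccr8 in libraries 4 to 8 only (0.037) and for Cx3cr1 with RNA concentration (-0.096) or the B cell marker sum (-0.091) as a covariate, none of them called. These settings were run for 24 genes (the receptors, Tardbp, the called genes of the other receptor and ligand lists and 6 signalling genes), of which the direction of the others did not turn in any setting.

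Same-numbered libraries deviated together in 2 of 8 pairs (r over 0.1, range -0.0048 to 0.16), and 5 of 16 libraries correlated best with their own number, so the number was not taken as a pairing. With the number as a replicate block 6 receptors were called, Cxcr6 among them (edgeR adjusted p = 0.0258), 3 other receptors, 5 ligands, 16 signalling genes, 5 receptor transcripts and 0 transcript shares. The main fit also left out the sets 1 to 3 and 4 to 8. With these sets as a block the same 5 receptors were called as in the main fit. The edgeR adjusted p was then 1.48e-07 for Ccr2, 0.000257 for Cxcr3, 0.000134 for Cxcr4, 0.0127 for Ccr7 and 0.00167 for Cxcr5. The alternative for splicing nodes with probability over 0.95 was not run. Ccr8 had as few as 9 counts in a library.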
